A study of Rattus norvegicus with 12 samples.

Results

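The genes described here encode the core proteins of the spliceosomal small nuclear ribonucleoproteins (snRNPs), measured by bulk RNA-seq in primary rat oligodendrocyte precursor cells (OPCs) with and without mild hypoxia. They were chosen by symbol (Snrp followed by a letter from a to g or a digit, and Snrnp, Lsm, Sf3a, Sf3b or Prpf followed by a digit). Of the 60 matching rows of the count table, 2 with "-ps" symbols and 3 lower-total rows of a repeated symbol were left out, which gave 55 genes of the 30562 in the table. A total of 51 passed the filter on low counts, a CPM (counts scaled to a common library total) above 10 in at least 1 library, and Snrpd2l, Prpf39, Snrnp48 and Lsm11 did not. The main contrast within them was between the 15 genes of the small Sm and LSm ring proteins and the 11 genes of the large U2 and U5 proteins.

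The cells were wild-type OPCs, grown by the study's methods from neonatal Sprague-Dawley rat cortex with FGF-2 and PDGF-AA. There were 6 libraries of mild-hypo-OPCs, labelled as kept at 5% FiO2 for 6 hours, and 6 of standard OPCs, labelled as kept in room air. The study's methods give the mild exposure in days, and its legend gives fewer biological replicates than the libraries deposited, so that libraries may share cultures and the p-values then measure only the spread between these libraries. Values are CPM scaled by TMM factors, log2 fold changes are mild-hypo-OPC over standard OPC with their standard error (SE), and calls are those of edgeR's quasi-likelihood test at a Benjamini-Hochberg adjusted p of 0.05 over 8938 genes.

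Splicing is carried out by U1, U2, U4, U5 and U6 snRNPs, each a small RNA with its proteins. A ring made of SmB, SmD1, SmD2, SmD3, SmE, SmF and SmG closes around the U1, U2, U4 and U5 RNAs, while the related LSm2 to LSm8 proteins form the ring of U6, and LSm1 replaces LSm8 in a cytoplasmic ring that acts with the decapping machinery. The SF3a and SF3b proteins of the U2 snRNP hold the branch site of the intron. In the U5 snRNP, PRPF8 forms the scaffold of the active site and SNRNP200 is the helicase that unwinds U4 from U6.

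The libraries differed between groups in more than the condition. Each mild-hypo-OPC library held more counts (4111669 to 9022324) than any standard library (1356079 to 2797513), and the share of counts on ribosomal RNA genes was 17.4% to 25.2% in the former and 23.9% to 38.4% in the latter. All 6 OPC markers (Pdgfra, Cspg4, Sox10, Olig2, Olig1 and Gpr17) were counted in every library, at a summed CPM, scaled by TMM, of 3004 to 3328 with mild hypoxia and 2363 to 2788 without. On that scale the summed CPM of the astrocyte markers was 558 to 673 and 487 to 567, of the neuron markers 127 to 146 and 71.3 to 111, and of the microglia markers 24.3 to 32.3 and 9.20 to 23.9, and those of endothelial and mesenchymal cells stayed at or below 2.31, with Dcn at 0 counts in all mild-hypo-OPC libraries and Pdgfrb at 0 in all standard libraries. By edgeR, Gpr17 (log2 fold change 0.45, adjusted p = 0.000842), Aqp4 (0.79, adjusted p = 0.000287), Slc1a3 (0.25, adjusted p = 0.0167), Tubb3 (0.72, adjusted p = 0.000181) and Csf1r (0.61, adjusted p = 0.0231) were called higher, and the other 5 OPC markers and the other markers that passed the filter were not called. Their part in the results was not tested. Standard libraries 1 and 2, the deepest of their group, stood apart from the other 4 in many of the ring genes below. Depth, RNA composition and condition move together here and cannot be told apart, and in bulk RNA fewer cells of a type and less RNA per cell cannot be told apart either.

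Most Sm and LSm ring genes were called lower in mild-hypo-OPCs, and no large U2 or U5 gene was. edgeR's quasi-likelihood test called 13 of the 15 ring genes lower and none higher, against 17.0% of all genes tested called lower and 7.00% called higher. Of the 13, Lsm5 passed the filter only through standard libraries, where its level was high. The median log2 fold change was -0.63 over the ring (range -1.48 to -0.09) and 0.15 over the large proteins (range -0.21 to 0.37), beside -0.003 over all genes tested. Of the 11 large-protein genes, 0 were called lower (0 also at an unadjusted p under 0.05, and 0 by limma-voom and DESeq2) and 1 higher. Over the 51 tested snRNP genes, 20 were called lower, 1 higher and 30 neither, against 24.0% of all genes tested called in either direction. These counts rest on the TMM scaling: with library size alone the median of all genes tested moved to 0.43, the ring median to -0.20 and the large-protein median to 0.59, with 6 ring genes called lower and 10 large-protein genes called higher. With the log2 total count as a covariate the same medians were -0.09 and -0.11, and no snRNP gene was called in edgeR (3 lower and 1 higher at an unadjusted p under 0.05).

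**Figure D1:**
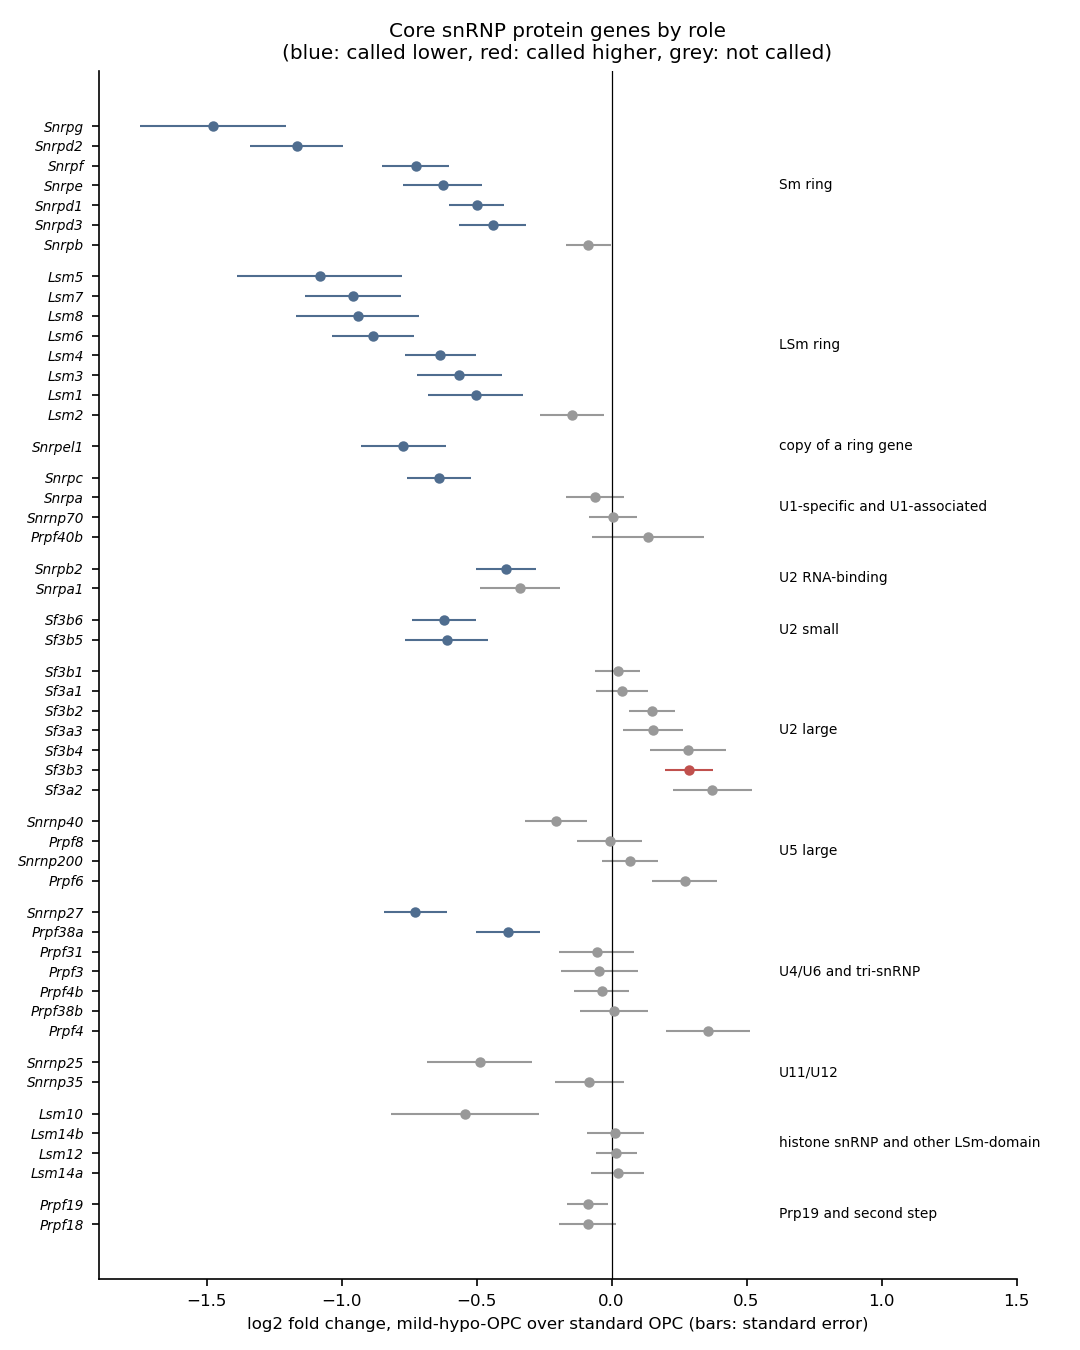
Log2 fold change of the tested snRNP genes reported here (x axis, mild-hypo-OPC over standard OPC, 6 libraries each), with genes in rows grouped by role, points for the estimate and bars for the standard error. The Sm and LSm rows lie to the left, from -1.48 for Snrpg to -0.09 for Snrpb, and the large U2 and U5 rows lie around 0, from -0.21 for Snrnp40 to 0.37 for Sf3a2.

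Promoters of the ring and large-protein genes were compared for 5 short motifs in the RefSeq windows of assembly GRCr8, which run from 250 bases before to 50 after the start, on both strands. Windows were matched by symbol for 49 of the 55 genes. The ETS-family core CGGAAG was present in 9 of 14 ring promoters and 8 of 10 large-protein promoters, and in 30 of 49 snRNP promoters (61.2%), against 34.5% of the windows of all genes tested and 17.4% of all windows in the table. It was thus common in both sets. The SP1 core GGGCGG was present in 9 of 14 and 6 of 10 (66.5% of the windows of genes tested and 34.9% of all windows), and the hypoxia-factor core ACGTG in 3 of 14 and 3 of 10 (26.9% and 19.7%). The NRF1 motif GCATGCGC was present in 2 of 14 and 1 of 10 (5.92% and 2.66%), and TATAAA in 1 of 14 and 0 of 10 (5.68% and 14.3%). A match is a description of the letters and not of binding.

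The 150 bases before the start are shown for 3 of the lower ring genes and for Sf3b3, the gene called higher, to let the shared CGGAAG be seen in both. Gene and motif were picked after the values were seen. Capitals mark CGGAAG, sequences run 5′ to 3′ on the gene's strand, and the GRCr8 positions are chr4:120369561-120369710 (plus strand) for Snrpg, chr1:87926259-87926408 (plus strand) for Snrpd2, chr7:30024163-30024312 (minus strand) for Snrpf and chr19:55729622-55729771 (minus strand) for Sf3b3.
Snrpg: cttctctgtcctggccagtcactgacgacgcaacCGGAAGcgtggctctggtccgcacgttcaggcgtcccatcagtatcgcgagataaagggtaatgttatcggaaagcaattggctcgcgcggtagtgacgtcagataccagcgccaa
Snrpd2: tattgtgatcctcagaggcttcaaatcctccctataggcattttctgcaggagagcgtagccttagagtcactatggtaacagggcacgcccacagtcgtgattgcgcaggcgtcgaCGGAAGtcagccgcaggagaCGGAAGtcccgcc
Snrpf: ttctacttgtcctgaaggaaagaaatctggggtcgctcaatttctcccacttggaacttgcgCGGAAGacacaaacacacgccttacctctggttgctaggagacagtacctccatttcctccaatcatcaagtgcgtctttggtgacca
Sf3b3: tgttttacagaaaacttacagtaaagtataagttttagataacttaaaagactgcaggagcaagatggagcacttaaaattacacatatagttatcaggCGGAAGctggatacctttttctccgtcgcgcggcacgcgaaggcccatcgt

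Within the Sm ring 6 of 7 genes were called lower. Snrpd2 (ENSRNOG00000015844) encodes SmD2, the partner of SmD1. Its lowest, median and highest levels were 39.7, 50.6 and 51.9 CPM in mild-hypo-OPCs and 61.2, 115 and 159 CPM in standard OPCs. All 6 mild-hypo-OPC libraries lay below all standard libraries, a separation that 5.40% of all genes tested showed in this direction, and the log2 fold change was -1.17 (SE 0.17, adjusted p = 0.000190 by edgeR's quasi-likelihood test). Standard libraries 1 and 2, at 61.2 and 71.3 CPM, were closer to the mild-hypo-OPC libraries than the other 4 standard libraries were, which ran from 115 CPM upward.

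Snrpf (ENSRNOG00000005556), which encodes SmF, was the other ring gene with no overlap between groups. It had 31.7, 36.3 and 46.6 CPM (lowest, median, highest) in mild-hypo-OPCs and 47.5, 61.5 and 80.9 CPM in standard OPCs, and changed by -0.73 on the log2 scale (SE 0.12, adjusted p = 0.000371, edgeR). Snrpg, which encodes SmG of the same SmE, SmF and SmG unit, had the largest fold change of the 51 tested genes, -1.48 (SE 0.27, adjusted p = 0.000689, edgeR), at 6.80, 8.12 and 11.5 CPM in mild-hypo-OPCs and 9.94, 26.3 and 44.3 CPM in standard OPCs. It is also a gene of few reads, on 41 to 68 counts a library in mild-hypo-OPCs against 26 to 58 in standard OPCs, and standard library 1 fell among the mild-hypo-OPC values.

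Snrpd1, which encodes SmD1, had more reads than its ring partners and a smaller change than Snrpd2, Snrpf and Snrpg. Its levels were 111, 125 and 134 CPM in mild-hypo-OPCs and 133, 179 and 220 CPM in standard OPCs, and its log2 fold change was -0.50 (SE 0.10, adjusted p = 0.00164, edgeR). The groups met at their edges, where standard library 2 lay below the highest mild-hypo-OPC library. Snrpe (SmE) changed by -0.63 (adjusted p = 0.00420) and Snrpd3 (SmD3) by -0.44 (adjusted p = 0.0138) in the same edgeR fit. Snrpb, which encodes SmB, the partner of SmD3, did not pass, at -0.09 (95% interval -0.26 to 0.09).

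Among the LSm ring genes, Lsm1 to Lsm8, 7 of 8 were called lower, with a median log2 fold change of -0.76. Of the 4 other LSm genes tested, described below, 0 were called. Lsm6 had 30.3, 34.6 and 44.4 CPM in mild-hypo-OPCs and 43.6, 74.8 and 85.6 CPM in standard OPCs, which overlapped only where mild-hypo-OPC library 6 exceeded standard library 1, and changed by -0.88 (SE 0.15, adjusted p = 0.000426, edgeR). A second row with the same symbol (ENSRNOG00000066480) changed by -0.89 (adjusted p = 0.000345). How reads were divided between the rows was not tested, so the second row is not separate support. LSm6 and LSm7 are members of both the nuclear and the cytoplasmic ring.

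Lsm7 had 31.3, 38.5 and 49.8 CPM in mild-hypo-OPCs and 44.9, 79.1 and 115 CPM in standard OPCs, and changed by -0.96 (SE 0.18, adjusted p = 0.000778, edgeR). Here too standard libraries 1 and 2 held the 2 lowest values of their group, and the second lay below the highest mild-hypo-OPC library. Lsm8, the member found only in the nuclear U6 ring, changed by -0.94 (adjusted p = 0.00571). Lsm1, which takes its place in the cytoplasmic ring, changed by -0.50 with an adjusted p of 0.0433, and 4 of 12 leave-one-out fits kept its call. The difference between these changes was not tested.

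Lsm4 changed by -0.63 (adjusted p = 0.00174) and Lsm3 by -0.56 (adjusted p = 0.0135). Lsm5 changed by -1.08 (SE 0.31, adjusted p = 0.0147), on at most 19 counts in any standard library and 32 in any mild-hypo-OPC library, and lost its call without standard library 6 (adjusted p = 0.0575). Its level was at most 5.14 CPM in mild-hypo-OPCs and 14.5 CPM in standard OPCs. It thus passed the filter only through standard libraries, the group where it was high, and its call adds no support. A second Lsm5 row held no counts. Lsm2 did not pass, at -0.15 (95% interval -0.39 to 0.10).

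**Figure D2:**
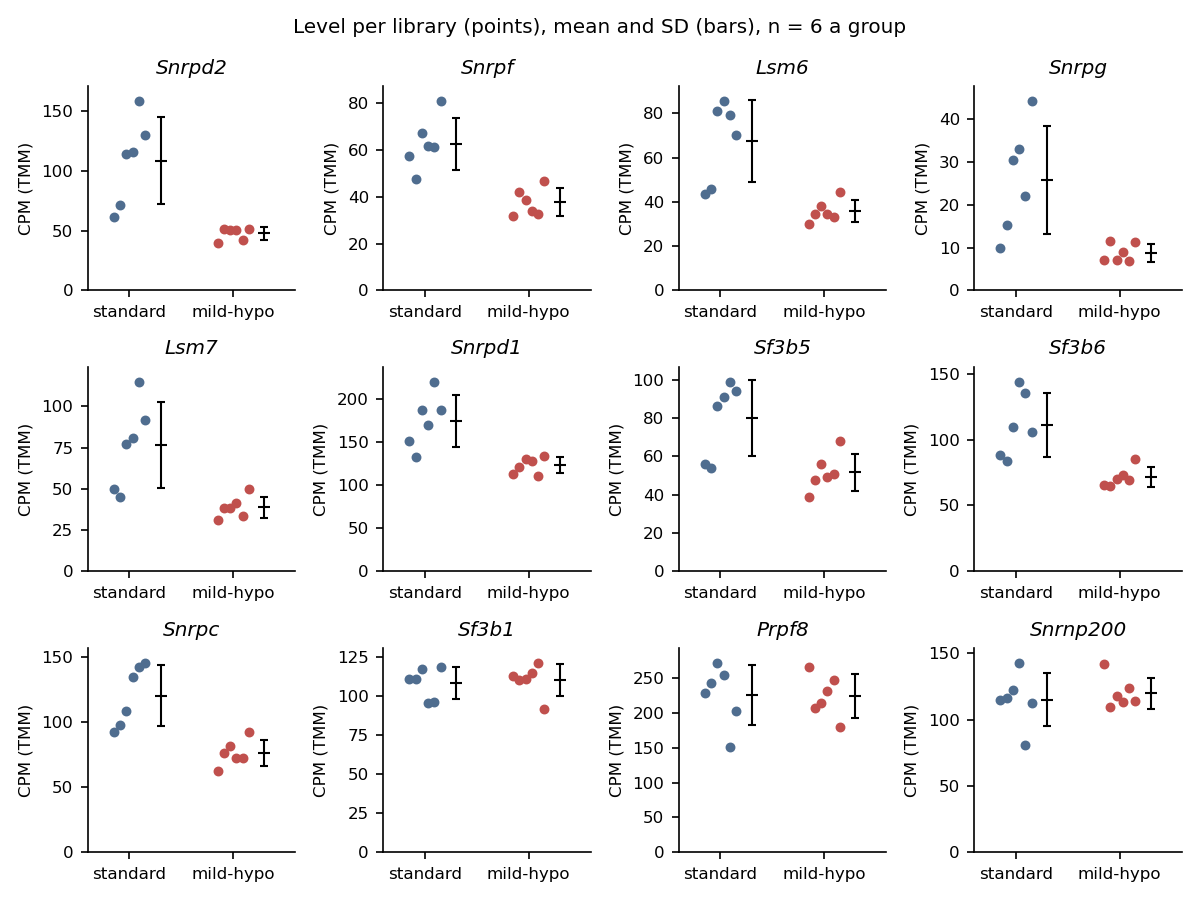
Level of 12 snRNP genes in every library (y axis, CPM after TMM scaling, from 0), with standard OPC points in blue and mild-hypo-OPC points in red, placed from left to right by library number, and the mean and SD of the 6 libraries beside them. For Snrpd2 the red points end at 51.9 and the blue points begin at 61.2, whereas for Sf3b1, Prpf8 and Snrnp200 the ranges cover each other.

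The large U2 proteins gave values around or above those of standard OPCs. Sf3b1, the largest SF3b subunit, which contacts the branch site, had 91.6, 112 and 121 CPM in mild-hypo-OPCs and 95.7, 111 and 119 CPM in standard OPCs. These ranges nearly coincide, and the log2 fold change was 0.02 (95% interval -0.16 to 0.20, adjusted p = 0.879, edgeR). Sf3b3, another large SF3b subunit, was the gene called higher, at 53.3, 58.3 and 64.8 CPM against 42.0, 46.7 and 56.2 CPM, with overlapping groups and a log2 fold change of 0.29 (SE 0.09, adjusted p = 0.0255). That call was lost without standard library 4, 5 or 6. The other 5 genes of the U2 set (Sf3a1, Sf3a2, Sf3a3, Sf3b2 and Sf3b4) had positive estimates from 0.04 to 0.37 and were not called, of which Sf3a2 came nearest with an adjusted p of 0.0713.

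The U5 proteins did not pass either way. Prpf8 had 179, 222 and 266 CPM in mild-hypo-OPCs and 151.3, 235 and 271 CPM in standard OPCs, and changed by -0.01 (95% interval -0.26 to 0.24, adjusted p = 0.975, edgeR). Snrnp200 had 109, 116 and 142 CPM against 80.6, 116 and 143 CPM, a log2 fold change of 0.07 (95% interval -0.15 to 0.29, adjusted p = 0.672). For both genes the mild-hypo-OPC values lay inside the range of the standard libraries. Prpf6, which bridges U5 to the U4/U6 particle, was at 0.27 (adjusted p = 0.11) and Snrnp40 at -0.21 (adjusted p = 0.209).

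SF3B5 and SF3B6 are small subunits of the same SF3b complex as SF3B1, and both of their genes were called lower. Sf3b6, whose protein lies next to the branch site, had 65.0, 69.4 and 85.5 CPM in mild-hypo-OPCs and 84.0, 108 and 144 CPM in standard OPCs, and changed by -0.62 (SE 0.12, adjusted p = 0.000945, edgeR). Sf3b5 had 38.7, 50.0 and 67.8 CPM against 53.9, 88.7 and 98.6 CPM and changed by -0.61 (SE 0.15, adjusted p = 0.00721). With the trend of the fold changes on gene span removed, a step added after seeing the data, Sf3b6 was at -0.51 and Sf3b5, with a span of 713 bp, at 0.015. In both genes the 2 lowest standard libraries were numbers 1 and 2, and the groups overlapped. For Sf3b5, mild-hypo-OPC library 6 exceeded both of them and mild-hypo-OPC library 3 exceeded standard library 2. For Sf3b6, mild-hypo-OPC library 6 exceeded standard library 2. Phf5a, another small SF3b subunit outside the symbol rule, changed by -0.65 (adjusted p = 0.00448).

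Other snRNP roles held 7 further genes called lower, Sf3b5 and Sf3b6 among them, of 25 tested, with a median of -0.08. That is 28% of these genes, beside 17.0% of all genes tested. Snrpc, which encodes U1-C, the protein that steadies U1 on the 5′ splice site, had 62.5, 74.4 and 92.4 CPM in mild-hypo-OPCs and 92.1, 121 and 145 CPM in standard OPCs, and changed by -0.64 (SE 0.12, adjusted p = 0.000808, edgeR). The groups touched at 1 library of each. The row Snrpc-ps3, a pseudogene by its symbol, was at -0.42 (adjusted p = 0.109) and Snrpc-ps7 held no counts. Among the other U1 proteins, Snrnp70 was at 0.004, Snrpa at -0.06 and Prpf40b at 0.14, none of these called.

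Snrpb2 and Snrpa1 encode the U2-specific B″ and A′ proteins, which bind the U2 RNA together. Snrpb2 had 24.1, 25.9 and 30.6 CPM in mild-hypo-OPCs and 27.9, 33.7 and 43.9 CPM in standard OPCs, with overlapping groups and a log2 fold change of -0.39 (SE 0.11, adjusted p = 0.0154, edgeR). Snrpa1 was at -0.34 and missed the threshold (adjusted p = 0.101).

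Among 7 genes of the U4/U6 particle and the tri-snRNP, 2 were called lower (28.6%, beside 17.0% of all genes tested). Snrnp27, a tri-snRNP protein, separated completely between groups, at 26.0, 27.5 and 32.4 CPM in mild-hypo-OPCs and 33.6, 49.3 and 59.5 CPM in standard OPCs, and changed by -0.73 (SE 0.12, adjusted p = 0.000287, edgeR). A second Snrnp27 row (ENSRNOG00000017838), with fewer reads, was at 0.11 (adjusted p = 0.616), so the rows of this symbol had estimates of opposite sign, and how reads were divided between them was not tested. Prpf38a had 19.8, 21.9 and 23.4 CPM against 21.7, 27.3 and 38.7 CPM and changed by -0.38 (SE 0.12, adjusted p = 0.0244). Prpf3, Prpf4b, Prpf31 and Prpf38b lay between -0.05 and 0.01 and Prpf4 at 0.36 (adjusted p = 0.0997).

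Snrpel1, which the RefSeq table lists as a pseudogene with the synonym Snrpe, had 11.4, 17.0 and 21.5 CPM in mild-hypo-OPCs and 22.2, 30.4 and 35.1 CPM in standard OPCs, without overlap (log2 fold change -0.77, SE 0.16, adjusted p = 0.00164, edgeR). With the trend on gene span removed it was at -0.024, at a span of 433 bp. It may share reads with Snrpe. The groups did not overlap in 4 of the 51 tested genes, all in the lower direction (Snrpd2, Snrpf, Snrnp27 and Snrpel1), against 5.40% of all genes tested, and no gene had all mild-hypo-OPC libraries above all standard libraries, against 2.94% of all genes tested.

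The remaining roles held no called gene in edgeR, limma-voom or DESeq2. The U11/U12 proteins of the minor spliceosome gave -0.49 for Snrnp25 (adjusted p = 0.0734) and -0.08 for Snrnp35. Lsm10, of the U7 particle that processes histone mRNAs, was at -0.54 (adjusted p = 0.160), and Lsm12, Lsm14a and Lsm14b lay from 0.01 to 0.02. Prpf19, the ubiquitin ligase of the Prp19 complex, and Prpf18, a factor of the second step, were both at -0.09. The 4 genes below the filter had TMM-scaled levels of 3.68 to 10.01 CPM (Prpf39), 3.23 to 11.1 CPM (Snrnp48), 0.830 to 5.52 CPM (Lsm11) and 0 to 2.76 CPM (Snrpd2l). By group, Snrnp48 ran from 3.23 to 6.64 CPM in mild-hypo-OPCs and from 5.74 to 11.1 CPM in standard OPCs. At an unadjusted p under 0.05 edgeR gave 1 gene over these 3 roles, the lower Snrnp25, limma-voom also gave 1 gene and DESeq2 gave 2.

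A ratio within each library does not depend on how the library is scaled. Reads of the 15 ring genes per 100 reads of the 11 large-protein genes were 46.1, 61.4, 59.9, 59.4, 51.8 and 74.0 in mild-hypo-OPC libraries 1 to 6, with a mean of 58.8 ± 9.50 (SD, n = 6). In standard libraries 1 to 6 they were 69.5, 66.9, 99.6, 108, 155 and 117, with a mean of 103 ± 32.8 (SD, n = 6). The groups overlapped, since mild-hypo-OPC library 6 lay above standard libraries 1 and 2. The mean log2 CPM of the ring minus that of the large proteins was -1.31 ± 0.196 and -0.477 ± 0.478 (SD, n = 6 each), and no test is given for it because the genes were chosen with earlier results known.

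The deepest library of all, mild-hypo-OPC 1, had the lowest ratio, and the 2 deepest standard libraries, 1 and 2, had the lowest ratios of their group. The other mild-hypo-OPC libraries showed no such order, with 59.9 in library 3 at 5474102 counts and 59.4 in library 4 at 4111669. With replicates 1 to 3 of each group alone, the ring median was -0.44 and 4 ring genes were called lower, whereas with replicates 4 to 6 alone it was -0.83 and 12 were called. When all libraries were thinned to the total of the shallowest, the ring median was -0.69 and 10 ring genes were called lower. Standard libraries 1 and 2, which had the lowest ratios of their group, were also left out, an alternative added after seeing the data. Then 13 ring genes were called lower at a median of -0.86. Of the 11 large-protein genes, 5 were called higher at a median of 0.19, beside 1074 of all genes called higher. Because the libraries left out were those nearest the mild-hypo-OPC ratios, a wider difference was built into this setting and adds no support.

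**Figure D3:**
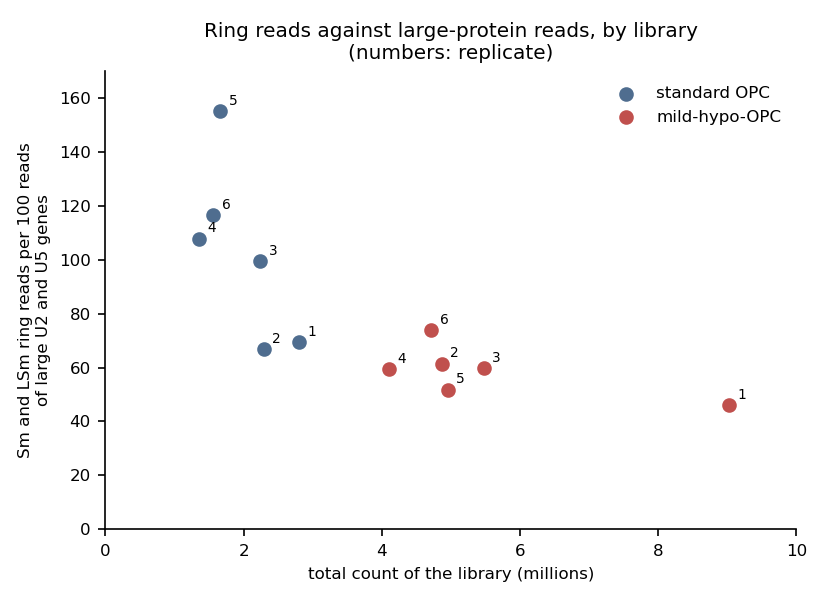
Reads of the ring genes per 100 reads of the large U2 and U5 genes (y axis) against the total count of each library (x axis, in units of 1e6 counts), with 1 numbered point per library. Mild-hypo-OPC points lie between 46.1 and 74.0 at the greater depths and standard OPC points between 66.9 and 155 at the smaller depths, and no standard library is as deep as any mild-hypo-OPC library.

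**Figure D4:**
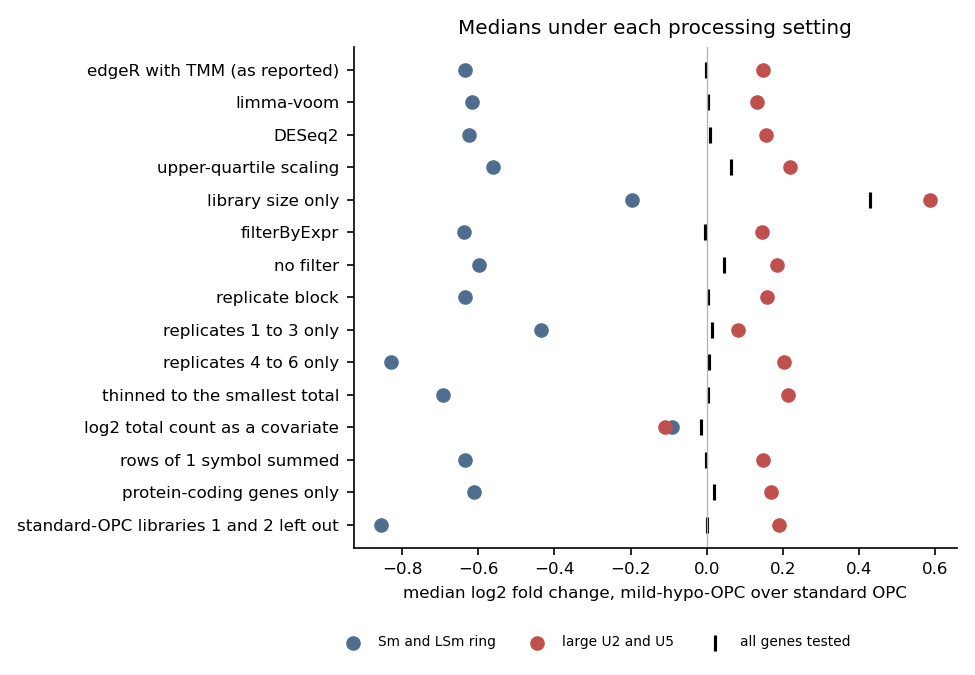
Median log2 fold change (x axis, mild-hypo-OPC over standard OPC) of the ring genes in blue, the large U2 and U5 genes in red and all genes tested as a black bar, under each processing setting (rows). Blue lies left of red in every row but the one with the log2 total count as a covariate, where the medians are -0.09 and -0.11.

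The ring genes have spans of 2415 to 15546 bp, and genes of short span were called lower more often than others in these libraries. By gene span in the RefSeq table, 42.3% of all 951 tested genes up to 5000 bp were called lower, 25.9% of 1964 from 5001 to 15000 bp, 11.7% of 2579 from 15001 to 40000 bp and 5.87% of 3050 above that. Of the ring genes, 3 of 3, 9 of 11 and 1 of 1 in the first 3 of these classes were called lower. The large-protein genes had 0 lower of 1, 1, 7 and 2 in the 4 classes. Sf3b4 and Sf3a2, the 2 large-protein genes with spans under 15000 bp, were at 0.28 and 0.37. Protein length itself was not compared, and gene span does not measure it. With the trend on span removed, the ring median minus the large-protein median was -0.65, beside -0.78 before. The same step took the called genes Sf3b5 and Snrpel1 from -0.61 and -0.77 to 0.015 and -0.024, and put the uncalled ring genes Lsm2 and Snrpb at 0.056 and 0.054.

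**Figure D5:**
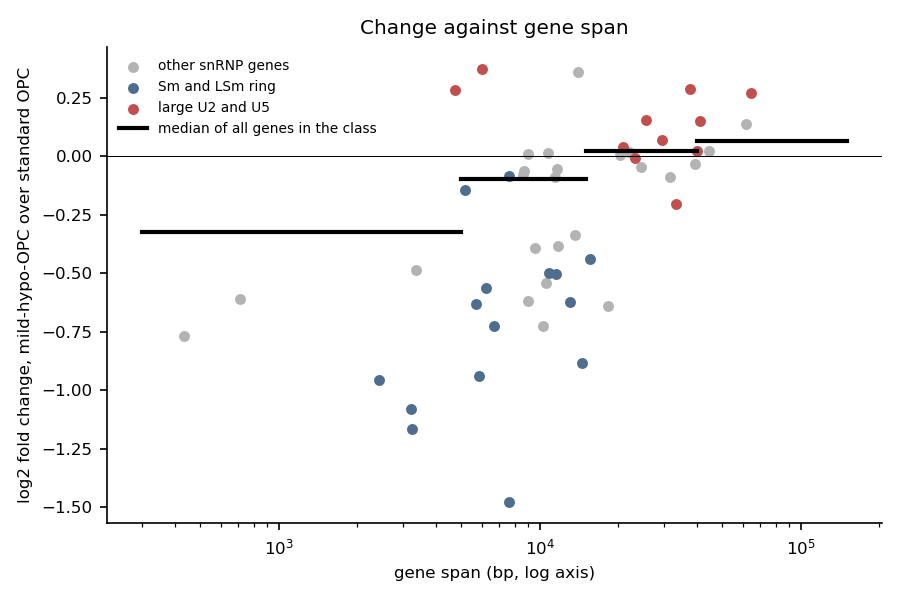
Log2 fold change (y axis, mild-hypo-OPC over standard OPC) of the snRNP genes reported here against their gene span in base pairs (x axis, log scale), with ring genes in blue, large U2 and U5 genes in red, other snRNP genes in grey and black lines for the median of all tested genes in each of 4 span classes. The class medians rise from -0.32 to 0.06, and 13 of the 15 blue points lie well below the line of their class.

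Around the snRNPs, 130 tested genes of other spliceosome and snRNP assembly lists had a median of 0.01, with 17 called lower (13.1%) and 3 higher (2.31%) by edgeR, beside 17.0% and 7.00% of all genes tested. Among 21 assembly genes 3 were lower, a share of 14.3% that is below the 17.0% of all genes tested. They were led by Clns1a, whose product pICln holds Sm proteins before they are loaded on RNA. It had 42.3, 48.0 and 57.6 CPM against 62.3, 87.0 and 104 CPM, no overlap and a log2 fold change of -0.76 (SE 0.12, adjusted p = 0.000283). Gemin7, of the SMN complex that loads the Sm ring, changed by -0.86 (adjusted p = 0.0127), and Ncbp2 by -0.36 (adjusted p = 0.0338). Other genes of the SMN complex were not called: Gemin6 was at -0.53, and Smn1, Gemin2, Gemin4, Gemin5 and Gemin8 lay between -0.11 and 0.01. Among 14 SR protein genes, which steer splice site choice, 3 were lower, led by Srsf9 at -0.67 (adjusted p = 0.000264). The Prp19 complex and catalytic-step list had 5 lower of 22, led by Bcas2, a Prp19 complex subunit, at -0.67 (adjusted p = 0.00275), and the exon junction complex list 3 of 11, led by Sap18 at -0.74 (adjusted p = 0.00132).

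The U1 and U2 partners had 1 lower of 17 (5.88%, beside 17.0% of all genes tested), Phf5a. The U5 and tri-snRNP partners had 2 lower of 12 (16.7%, near that 17.0%), led by Ppih, a cyclophilin of the tri-snRNP, at -0.59 (adjusted p = 0.00946). They had 1 higher (8.33%, beside 7.00% of all genes tested), Sart1 at 0.41 (adjusted p = 0.0416). Of 25 hnRNP genes, whose proteins coat nascent RNA, 2 were higher, led by Hnrnpd at 0.36 (adjusted p = 0.0205), and 0 lower (1 at an unadjusted p under 0.05, and 0 by limma-voom and DESeq2). The share called higher, 8%, was near the 7.00% of all genes tested. The 8 tested partners of the cytoplasmic LSm1 ring in decapping had 0 calls in edgeR, limma-voom and DESeq2, and 0 at an unadjusted p under 0.05 in each.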

How the data were processed

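The deposited table holds whole-number counts per Ensembl gene for 12 libraries, without normalization, and 0 columns were left unused. Per the labels and the submitters' processing notes, the authors made strand-specific libraries from total RNA and processed reads with Trimmomatic 0.36, FastQC 0.11.9, STAR 2.7.9a, RSEM 1.3.3 and the build mRatBN7.2; how estimates became whole counts is not given in the sources used here. Groups and library numbers came from the labels. The genes and lists were chosen with earlier results of these data known.

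In R 4.3.3, the study's filter (1 or more libraries over 10 CPM) kept 8938 genes, which were fitted with edgeR 4.0.16 (TMM, glmQLFit, glmQLFTest, condition only) with Benjamini-Hochberg adjustment at 0.05. The study used limma-voom, which is an alternative here (limma 3.58.1), as is DESeq2 1.42.0. The SE is the fold change over the root of the F statistic, and intervals are 95%. The mean log2 CPM used a prior count of 2. Totals of 1356079 to 9022324 counts limit genes of few reads, and errors do not cover the unequal depth of the groups.

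Members were named by role, with full values for the 6 called ring genes of lowest p, for Sf3b1, Prpf8, Snrnp200, Sf3b5 and Sf3b6, and for up to 3 called genes of each other role. In the other lists the called gene of lowest p in each direction was named. Gemin7, Ncbp2 and the uncalled genes of the SMN complex were added after their values were seen. Of the members, 1 that was not called enters the counts and is not reported here by name. A planned comparison by protein length was not run. Gene span from the RefSeq table (95.59% of the genes kept) was used instead, but it does not measure protein length. The ring gene Lsm6 spans 14561 bp and the large-protein gene Sf3b4 4753 bp, so the span results do not account for protein size. No pair of libraries looked like a repeat deposit, since all 15 pairs within each group had a chi-square of at least 3.22 times its degrees of freedom. Alternatives were other tests, scalings and filters, a block, subsets of libraries, thinning, a depth covariate and summed symbols, and, added after seeing the data, protein-coding genes only, the span trend and 2 standard libraries left out.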

Additional observations from a re-analysis of the deposited data

Results flagged for a closer look

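A library far from the 5 others of its group, by Dixon's criterion, was found in 5 of 104 groups of values tested, and chance gives about 1 in 20. In mild-hypo-OPC library 6, Lsm4 was highest at 86.7 CPM (next 66.3), Sf3b1 lowest at 91.6 CPM (next 111) and Sf3b2 lowest at 135 CPM (next 153). That library also had the highest ratio of ring to large-protein reads of its group, 74.0 per 100. In standard library 5, Lsm1 was highest at 27.3 CPM (next 16.1). Leaving that library out ended the call of Lsm1, but so did leaving out several others, since 4 of 12 leave-one-out fits kept the call. In standard library 3, Snrpa was lowest at 28.9 CPM (next 36.0).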

How the results depend on the processing

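The ring median stayed below the large-protein median under each alternative but the depth covariate, where the difference reversed to 0.017. With that covariate 0 ring and 0 snRNP genes were called lower and 0 snRNP or large-protein genes higher (edgeR; at an unadjusted p under 0.05, 3 snRNP genes were lower and 1 higher), with 43 lower and 0 higher of all genes (217 higher at an unadjusted p under 0.05), with 0 ring and 1 large-protein gene lower at an unadjusted p under 0.05. The estimates of 5 of the 15 ring genes, 7 of the 11 large-protein genes and 15 other snRNP genes changed sign, among them these called genes: Lsm4 (0.027), Lsm7 (0.0064), Lsm8 (0.24), Sf3b3 (-0.025), Sf3b5 (0.26), Snrpc (0.057) and Snrpd3 (0.085). Depth and condition do not overlap, so this fit cannot separate them. With library size only, 7 snRNP and 6 ring genes were called lower, 26 snRNP and 10 large-protein genes higher, and 405 lower and 5515 higher of all genes; Lsm2 (0.28), Prpf18 (0.34), Prpf19 (0.35), Prpf3 (0.39), Prpf31 (0.38), Prpf38a (0.046), Prpf4b (0.40), Prpf8 (0.44), Snrnp35 (0.35), Snrnp40 (0.22), Snrpa (0.37), Snrpa1 (0.094), Snrpb (0.35) and Snrpb2 (0.044) turned positive. Replicates 1 to 3 alone gave 5 snRNP and 4 ring genes lower, 0 snRNP and 0 large-protein genes higher (edgeR, 0 at an unadjusted p under 0.05), and 343 lower and 53 higher of all genes, with fewer libraries. Upper-quartile scaling gave 4 snRNP, 3 large-protein and 1136 of all genes higher, and thinning gave 2, 2 and 412. Without standard libraries 1 and 2 (added after seeing the data) 5 snRNP, 5 large-protein and 1074 of all genes were called higher. Those libraries had the lowest ratios of ring to large-protein reads of their group, so a wider difference was built into that setting. The cause of the changes in the last 3 settings was not tested.

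Leaving out 1 library at a time gave 17 to 22 snRNP and 11 to 13 ring genes lower, 0 to 3 snRNP and 0 to 3 large-protein genes higher, 0 to 0 large-protein genes lower, 1165 to 1664 lower and 436 to 823 higher of all genes, and a difference of medians of -0.91 to -0.72. Sf3b3, the gene called higher, was lost without standard library 4, 5 or 6, and 2 or 3 genes were called higher without mild-hypo-OPC library 2 or standard library 1. The replicate numbers showed no clear pairing of the samples (correlations of same-numbered deviations from -0.276 to 0.296), which cannot exclude shared cultures. A replicate block gave 12 ring and 19 snRNP genes lower and ended the call of Lsm1 alone. Of the 21 called genes, limma-voom kept 20 and DESeq2 kept 21. With edgeR's own filter on low counts (filterByExpr), 53 snRNP genes were tested and 21 were called lower, beside 20 in the main fit. Genes under about 20 counts per library, such as Lsm5, are limited by depth.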
